A study of Mus musculus with 18 samples.

Results

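Il6, the mouse gene of the cytokine interleukin-6 (IL-6), was followed through the 18 libraries of the series as 1 gene of 34745 in the deposited table. It was taken by its gene name, because the study's title names IL-6 translation. The cells were macrophages grown from mouse bone marrow with 20 ng/ml of macrophage colony-stimulating factor (M-CSF) for 6 days, then given 100 ng/ml of lipopolysaccharide (LPS), a component of Gram-negative bacterial walls, for 8 h. All 6 groups received LPS, so no untreated cells were compared. They were wild type (WT) or carried the label Mkrn2 KO, a knockout of a makorin gene, whose protein is an E3 ubiquitin ligase that binds RNA. How the knockout was made, and the strain, age and number of the mice, are not given in the sources used here. From each genotype 3 libraries each were made of total RNA of whole lysate, of polysome RNA (mRNA carrying several ribosomes) and of monosome RNA (mRNA with a lone ribosome). The labels do not say that the 3 libraries of a group came from separate cultures or animals, so p-values measure the spread between libraries, which may be technical.

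IL-6 is a secreted protein that macrophages make after Toll-like receptor 4 senses LPS, with NF-kappaB and C/EBP-beta acting at the gene. It binds the IL-6 receptor, which joins gp130, and the complex signals through JAK kinases to the transcription factor STAT3. In the liver it induces acute-phase proteins, and it acts on B cells and T cells. The Il6 mRNA is short-lived, and proteins such as tristetraprolin and Regnase-1, which promote its decay, and Arid5a, which stabilizes it, act on its 3′ untranslated region (UTR). An mRNA moves toward polysomes as more ribosomes load onto it, and a short coding sequence has room for fewer of them.

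Il6 (ENSMUSG00000025746) lies on the plus strand of chromosome 5 from base 30013114 to base 30019981, the position of GENCODE M21 on the GRCm38 build. No other gene of the table overlapped it. The nearest 2 were Gm42806, 4315 bases away with 0 counts in every library, and Tyms, 38220 bases away. The transcript used here is 1 of 4 protein-coding ones and has 5 exons, a 5′ UTR of 78 bases, a coding sequence of 636 bases (211 codons and a stop) and a 3′ UTR of 427 bases, all of the latter in exon 5. Its 3′ UTR holds the pentamer ATTTA, the core of AU-rich elements, 6 times on the transcribed strand, with overlaps counted. The stretches shown hold 4 of these 6, in capitals, read 5′ to 3′ on the plus strand.
Il6 pentamers 1 and 2, chr5:30019686-30019711: ttttaATTTAttgataATTTAaataa
Il6 pentamers 3 and 4, chr5:30019722-30019749: agttaATTTAtgattgatATTTAttatt
The 3′ UTR also holds 6 inverted repeats with a stem of 5 bases around a loop of 3 to 6 bases, the form in which stem-loop binding proteins meet an mRNA. One of them is shown with its stem in capitals.
Il6 inverted repeat, chr5:30019635-30019650: GTTCTctacgaAGAAC
Of 8375 tested genes with a 3′ UTR window of the same length, the first 427 bases, 43.5% held at least 1 ATTTA and 22 (0.263%) held at least 6. That window is the whole 3′ UTR of Il6 but only the start of longer ones, and genes with shorter ones were left out. Over whole 3′ UTRs, of 317 to 4492 bases, several LPS-induced cytokine genes held as many or more. Tnf held 8, Csf2 9, Lif 7 and Inhba 21. Il10, Il12a, Il12b, Il23a, Csf3 and Osm held 6 each, and the other cytokine genes counted held 0 to 5. A and T made up 74.9% of the Il6 window against a median of 53.4%, and 99.9% of the windows had a lower share. An inverted repeat of the same form was found in 88.6% of the windows, so its presence does not set Il6 apart. These matches describe letters and not binding.

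In the scaled levels of Il6 the monosome libraries stood above all others, and in polysome RNA the KO-labelled libraries stood above WT. Levels are given as counts and as CPM (counts per 1000000 counts), scaled by TMM, a normalization that assumes most genes do not differ between libraries. The WT total RNA libraries held 1342, 1375 and 1756 counts (93.6, 88.4 and 109 CPM), and the KO-labelled ones 1936, 2366 and 1481 (117, 112 and 92.4 CPM). In polysome RNA WT held 1181, 1291 and 1161 counts (66.4, 65.8 and 63.5 CPM), and KO-labelled libraries 1676, 2081 and 3005 (86.6, 129 and 150 CPM). In monosome RNA WT held 2084, 3101 and 2475 counts (342, 409 and 354 CPM), and KO-labelled libraries 2415, 2270 and 2455 (319, 296 and 314 CPM). The genotypes overlapped in total RNA and did not overlap in polysome or monosome RNA, with KO-labelled libraries above WT in the first of these and below in the second. Over all genes the genotypes did not overlap, in either direction, for 14.9% in polysome RNA and 12.5% in monosome RNA. The lowest KO-labelled polysome library lay 1.3 times above the highest WT one, and the lowest WT monosome library 1.07 times above the highest KO-labelled one. Without TMM, the KO-labelled polysome libraries had 107.8 (95% exact Poisson interval 102.7 to 113.1), 160.0 (153.2 to 167.0) and 190.7 (183.9 to 197.6) CPM of Il6, so their differences exceeded counting error, the only error these intervals cover. On that scale KO monosome replicate 2 had 180.1 CPM, below KO polysome replicate 3, so the monosome libraries no longer all stood above the others.

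**Figure D1:**
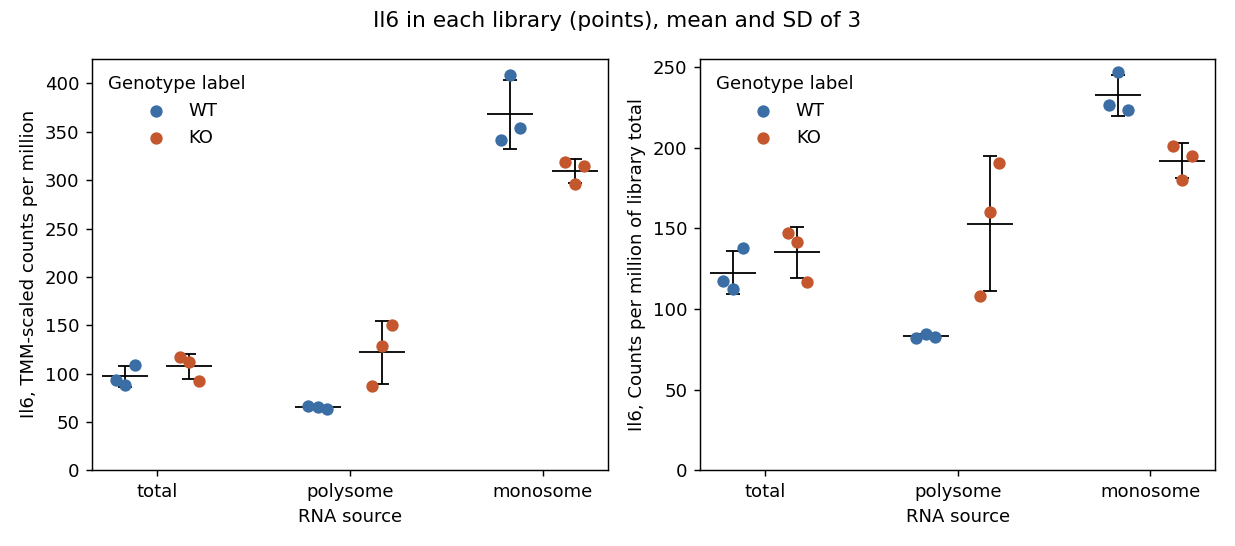
Il6 in each of 18 libraries (points) by RNA source and genotype label, with mean and SD of 3, as TMM-scaled CPM (left) and as CPM of the library total (right). On the left the 3 KO-labelled polysome libraries, at 86.6 to 150 CPM, lie above the 3 WT ones at 63.5 to 66.4, and all 6 monosome libraries lie at 296 CPM or more.

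From the lowest to the highest mean the order was WT polysome (65.3 ± 1.54 CPM, SD, n = 3), WT total (97.0 ± 10.7), KO-labelled total (107.3 ± 13.2), KO-labelled polysome (121.9 ± 32.3), KO-labelled monosome (309.7 ± 12.4) and WT monosome (368.1 ± 35.6). By edgeR's quasi-likelihood test, adjusted by Benjamini-Hochberg over 12782 genes, 2 of the 5 steps between neighbours passed the threshold of 0.05. These were WT polysome to WT total (adjusted p = 0.00916) and KO-labelled polysome to KO-labelled monosome (adjusted p = 1.94e-06). The other 3 pairs did not pass. The libraries overlapped for WT and KO-labelled total RNA and for KO-labelled total and polysome RNA. Those of KO-labelled and WT monosome RNA did not overlap, which held for 12.5% of all genes. In FPKM, the authors' length-scaled unit, Il6 ranked 2061st of the 12782 tested genes in WT polysome RNA at 20.3 and 1250th in KO-labelled polysome RNA at 37.4. In WT monosome RNA it ranked 657th at 56.9 FPKM. The deposited FPKM imply a length of 4086 bases for Il6, against 1141 in the annotated transcript, and what that length rests on is not given in the sources used here, which limits comparisons of FPKM between genes.

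The spread of Il6 was uneven between groups. In KO-labelled polysome RNA the log2 SD was 0.41, larger than in 96.3% of 827 genes within 0.5 log2 units of its level, whose median was 0.09. In WT polysome RNA the coefficient of variation was 2.37%, against 26.5% in the KO-labelled libraries. The test shares 1 estimate of spread for Il6 over all 18 libraries, a quasi-dispersion of 0.577 against a median of 0.467, so its interval may be too narrow for the KO-labelled polysome group and too wide for WT.

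Mkrn2 RNA, the check of the labels, stood at 0.888 (total), 0.901 (polysome) and 0.772 (monosome) of its WT level in the KO-labelled libraries, with adjusted p of 0.855, 0.79 and 0.086. Counts over a whole gene do not show which part of it was changed, so the labels could not be checked by RNA loss, and "KO-labelled" is used for that reason. Library totals ran from 9190034 to 16711558 counts. The monosome libraries had TMM factors of 0.605 to 0.664, and the other 12 had 1.24 or more.

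Between genotypes, the study's question was whether Il6 mRNA sits differently on ribosomes. In polysome RNA Il6 was 1.87-fold higher in KO-labelled libraries (95% interval 1.49 to 2.34), with a log2 difference of 0.90 ± 0.15 (SE) and an adjusted p of 0.0551, which did not pass. That test called 2 of 12782 genes (0.0156%), Taldo1, an enzyme of the pentose phosphate pathway (higher), and Ccl22, a chemokine that attracts T cells (lower). The p of Il6 was the 6th smallest. KO-labelled libraries lay wholly above WT for 8.23% of all genes. An exact two-sided permutation test of 3 against 3 libraries gave p = 0.1, the smallest it can give. The call depended on 1 library, on the tool and on settings within edgeR. Leaving out KO polysome replicate 1, the lowest of its group, gave a difference of 1.10 (adjusted p = 0.000778). Leaving out replicate 3 gave 0.72 (adjusted p = 0.111), and DESeq2 on all libraries gave 0.89 (adjusted p = 0.000102). Within edgeR the adjusted p was 0.0389 with no filter and 0.0339 with a robust prior, but 0.403 with only the compared libraries.

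Among abundant genes the Il6 difference stood high, counted from the largest upward difference. Of 843 genes whose mean CPM was at least that of Il6 (178), no other had a polysome difference as large. That cut was the mean of Il6 itself over all 18 libraries, raised by its monosome groups (309.7 and 368.1 CPM). Its polysome groups had 65.3 and 121.9 CPM, so genes at its polysome level were left out. The Il6 difference came 7th of 2765 genes averaging 50 CPM or more, where those above it included Sla2, Mob1a and Itgam. For the genotype difference of the polysome-to-monosome ratio, described with the other ratios, Il6 came 4th of 843 and 19th of 2765, and for that of the polysome-to-total ratio 3rd and 22nd. Among all tested genes, low ones included, the polysome difference came 107th. Its neighbours in that last order were 2210418O10Rik, a RIKEN gene, at 0.90 ± 0.48, and S1pr4, a receptor of sphingosine 1-phosphate, at 0.90 ± 0.36. Both had a mean under 5 CPM, and their standard errors were larger than that of Il6.

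In total RNA the Il6 difference was 0.15 ± 0.15 on the log2 scale, a fold of 1.11 with an interval of 0.885 to 1.38 (adjusted p = 1.0), beside 2 genes called (0.0156%). Thus the interval held values up to 1.38-fold, and the exact permutation test gave p = 0.3. The value ran from 0.066 without KO total replicate 1 to 0.24 without KO total replicate 3, with adjusted p of 1.0 at either end; without WT total replicates 2 and 3 it was 0.084 and 0.24. In monosome RNA the difference was -0.25 ± 0.15, a fold of 0.841 with an interval of 0.673 to 1.05 (adjusted p = 0.57), beside 32 genes called (0.25%). All 3 KO-labelled monosome libraries lay below WT, which held for 6.49% of all genes, and the exact permutation p was 0.1.

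The difference between genotypes of a ratio of fractions bears more directly on ribosome loading. The polysome-to-monosome ratio of Il6 was 2.22-fold higher under the KO label (interval 1.62 to 3.05; log2 1.15 ± 0.21), with an adjusted p of 0.116. In this comparison 7 genes passed (0.0548%), and the unadjusted p of Il6, 7.27e-05, was the 8th smallest, the next after them. Leaving out KO polysome replicate 1 gave 1.34 (adjusted p = 0.00131), leaving out replicate 3 gave 0.97 (adjusted p = 0.244), and DESeq2 gave 1.14 (adjusted p = 0.00124). The polysome-to-total ratio was 1.69-fold higher (1.23 to 2.32; 0.75 ± 0.21), with adjusted p = 1 and an unadjusted p of 0.00301. No gene passed there (0%), 229 of 12782 (1.79%) had an unadjusted p under 0.05 in edgeR, voom called 1 and DESeq2 called 3. The monosome-to-total ratio differed by -0.40 ± 0.21 (adjusted p = 0.974), where 7 genes passed (0.0548%). These 3 ratios share libraries, so they are not separate evidence.

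**Figure D2:**
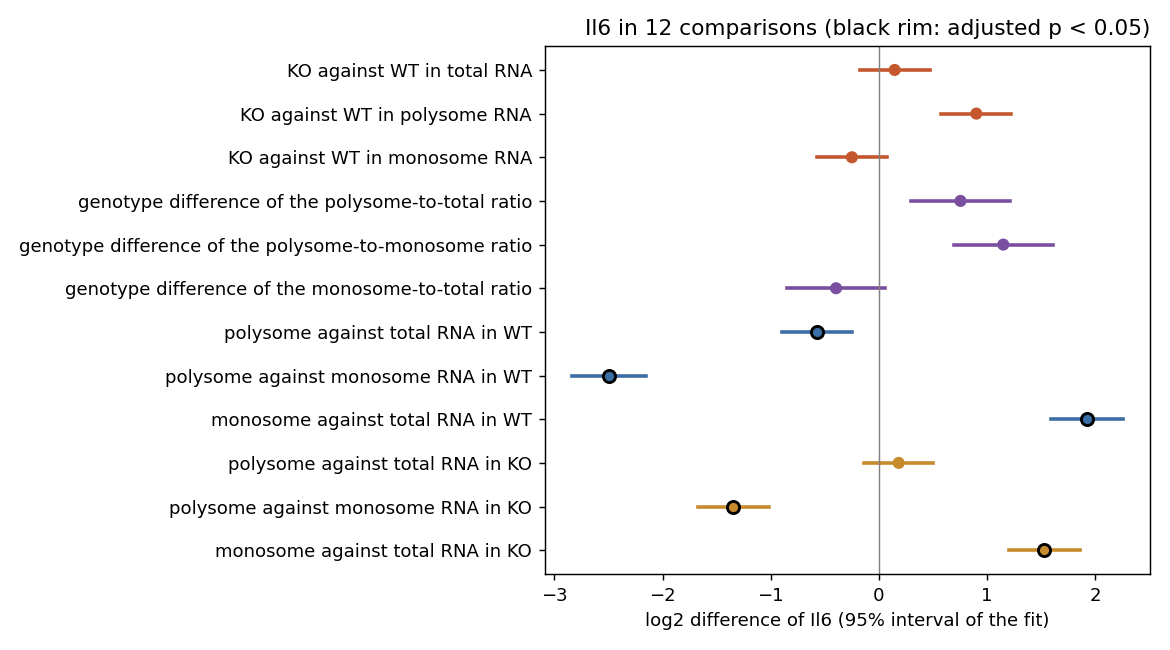
Log2 difference of Il6 (horizontal axis) with its 95% interval in each of 12 comparisons, from 1 fit over 18 libraries, with a black rim where the adjusted p was under 0.05. The KO against WT value in polysome RNA is 0.90 and in monosome RNA -0.25, and the polysome against monosome values are -2.50 in WT and -1.35 in KO-labelled libraries.

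Within each genotype Il6 was lower in polysome than in monosome RNA. In WT it was 5.64-fold higher in monosome RNA (interval 4.46 to 7.14; polysome against monosome log2 -2.50 ± 0.16, adjusted p = 4.05e-09), beside 7059 genes called (55.2%). Only 1.06% of tested genes had a lower value. In KO-labelled libraries it was 2.54-fold higher in monosome RNA (2.03 to 3.19; log2 -1.35 ± 0.15, adjusted p = 1.94e-06), beside 7425 genes called (58.1%). Monosome RNA exceeded total RNA 3.80-fold in WT (log2 1.92 ± 0.16, adjusted p = 3.42e-08) and 2.89-fold in KO-labelled libraries (1.53 ± 0.15, adjusted p = 3.40e-07). The backgrounds were 62.5% and 65.4% of genes called. Polysome RNA was lower than total RNA in WT (-0.57 ± 0.15, adjusted p = 0.00916; 33% of genes called). Under the KO label that difference was 0.18 ± 0.15 (adjusted p = 0.392; 31.9% of genes called), and it was 0.38 (adjusted p = 0.0279) without KO polysome replicate 1 and 0.0060 (adjusted p = 0.984) without replicate 3. Leaving out KO total replicate 1 gave 0.28 (adjusted p = 0.248) and leaving out KO total replicate 3 gave 0.086 (adjusted p = 0.760).

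Sizes between monosome and other fractions depend on the scaling, since counts are shares of a fraction and not amounts. With library size alone in place of TMM, the median of all genes moved by 0.997 in WT and 1.02 in KO-labelled libraries for polysome against monosome. Il6 then stood at -1.49 and -0.33, the latter with an adjusted p of 0.0565, which no longer passed. Relative to that median, Il6 stood at -2.48 and -1.35. The calls moved with it: under TMM 3347 genes passed as higher and 3712 as lower in polysome against monosome RNA of WT, and with library size alone 9221 and 729. Under the KO label the counts were 3656 and 3769 under TMM, and 9237 and 786 with library size alone. For monosome against total the median moved by -1.02 and -1.06, with Il6 at 0.92 and 0.51, or 1.94 and 1.57 relative to it. There the split in WT went from 4015 higher and 3968 lower to 1136 and 8839, and under the KO label from 4140 and 4214 to 1188 and 8957.

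Genes with short coding sequences tended to lie lower in polysome against monosome RNA. The 636 bases of Il6 were longer than the coding sequences of 14.9% of 11635 tested genes with a coding transcript. In WT the median was -0.39 for 3782 genes under 1000 coding bases and 0.20 for longer ones, and Spearman's rho across genes was 0.398, a description of genes that share the same libraries. Il6, at -2.50, was lower than all but 1.27% of the short ones. For the 22 genes with at least 6 ATTTA in the window, a set drawn after the data were seen with the count of Il6 itself, the median was -0.47, against 0.08 over all windows. Their KO against WT median in polysome RNA was 0.02, and Il6 was the highest of them, followed by Csf3, a granulocyte growth factor, at 0.46 and then Rp2 at 0.33. The neutrophil chemokines Cxcl1 and Cxcl2 stood at 0.25 and 0.03, the interleukin-12 subunit Il12a at -0.02, and Ptgs2, the inducible cyclooxygenase, at -0.15.

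Among LPS-induced cytokines, which share with Il6 the role of secreted signals, Il6 had the largest polysome difference. Of 22 tested cytokine genes, Il6 included, 0 passed edgeR's test between genotypes in any of the 3 fractions. Over all genes that test called 0.0156% in total and in polysome RNA and 0.25% in monosome RNA. In polysome RNA DESeq2 and voom each called 1 of the 22, which was Il6, among 55 and 26 genes called. In total RNA both called Tnfsf9, a costimulatory ligand, as higher and Ifnb1, interferon beta, as lower. They did so among 32 (DESeq2) and 67 (voom) genes called of 12782. In monosome RNA DESeq2 called Csf3 and Il1a as higher, among 118 genes called. In polysome RNA 13 were above 0 and 9 below, with a median of 0.04 against 0.0051 over all genes. An unadjusted p under 0.05 was reached upward by 6 and downward by 1 of the 22, beside 6.99% of all genes in either direction. The 6 most abundant by FPKM were Il1a (0.31 ± 0.09) and Il1b (0.27 ± 0.11), which encode interleukin-1, Tnf (0.02 ± 0.09), Il27 (-0.01 ± 0.08), Il15 (-0.24 ± 0.09), a growth factor of natural killer cells, and Il1rn (0.06 ± 0.20), the antagonist of the interleukin-1 receptor. Il6, at 0.90, ranked 1st of 22 there, 11th in total RNA and 21st in monosome RNA. In the genotype difference of the polysome-to-monosome ratio it also ranked 1st, where the list median was -0.0087 against 0.02 over all genes. The 6 most abundant cytokines had values of -0.14 (Tnf) to 0.09 (Il1b) in that ratio.

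Under TMM, a low polysome-to-monosome value was shared with many of these genes. In WT 18 of the 22 cytokines passed as lower and 3 as higher in polysome against monosome RNA, with a median of -0.90 against 0.0061 over all genes, where 29% passed as lower and 26.2% as higher. With library size alone the split turned, to 4 lower, Il6 among them, and 11 higher, Tnf among them. Under that scaling 729 of all 12782 genes passed as lower and 9221 as higher. Under TMM Il6 was the lowest of the 22. Among the 6 most abundant it was followed by Il1a at -2.34 ± 0.09 and Il1b at -2.18 ± 0.11, while Tnf stood at -0.72 ± 0.09. Under the KO label Il6 ranked 18th of 22 rather than last. All 12 chemokines tested passed as lower in WT under TMM (6 lower and 4 higher with library size alone), with a median of -1.30, from Ccl3, which attracts monocytes, at -3.05 ± 0.17. Between genotypes Ccl22 was the 1 of 12 chemokines that passed in polysome RNA (0.0156% of all genes called), where their median was -0.05. It was also the 1 that passed, as lower, in total RNA (0.0156%) and in monosome RNA (0.25%). In monosome RNA DESeq2 called Cxcl1 as higher beside it, among 118 genes of 12782.

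**Figure D3:**
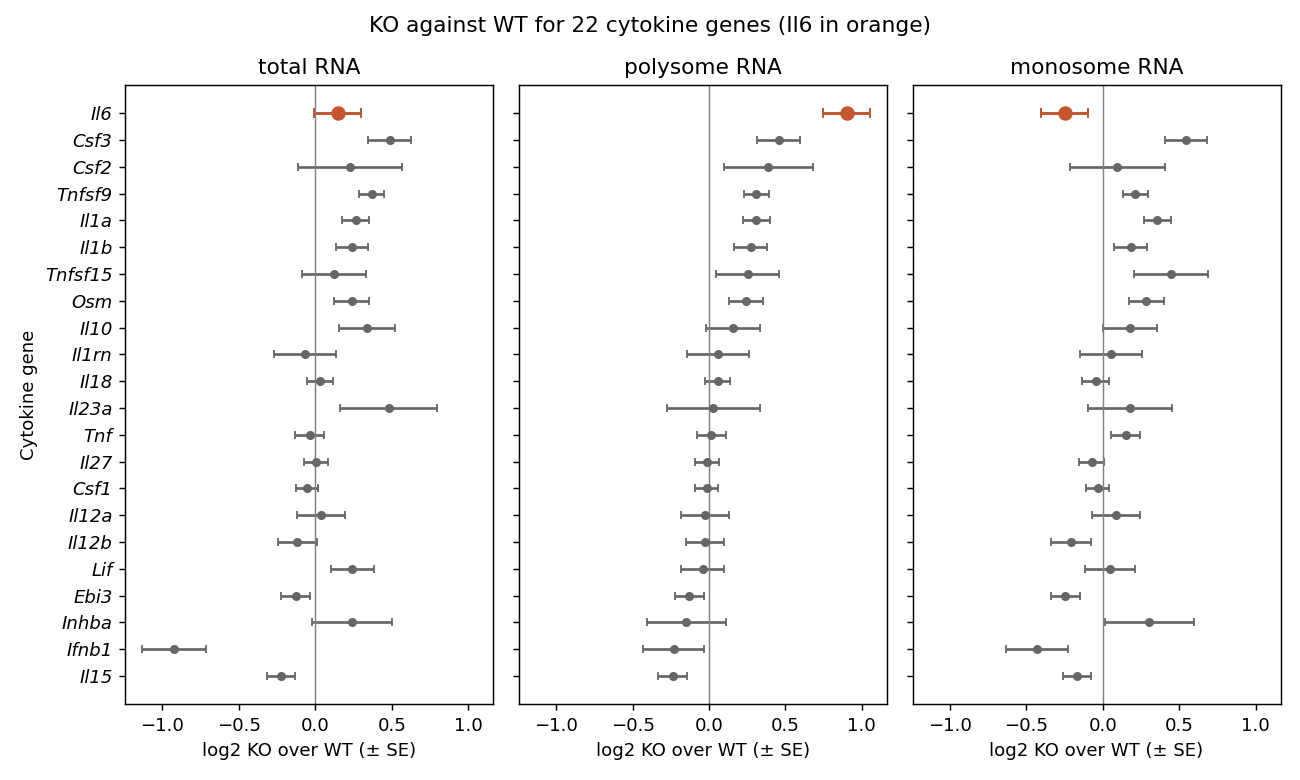
Log2 difference of KO-labelled against WT (horizontal axes, with standard errors) in total, polysome and monosome RNA for the 22 tested LPS-induced cytokines, ordered by the polysome value. Il6, in orange, is the highest in polysome RNA at 0.90 and 21st in monosome RNA at -0.25, and 0 of the 22 passed the adjusted threshold in edgeR.

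**Figure D4:**
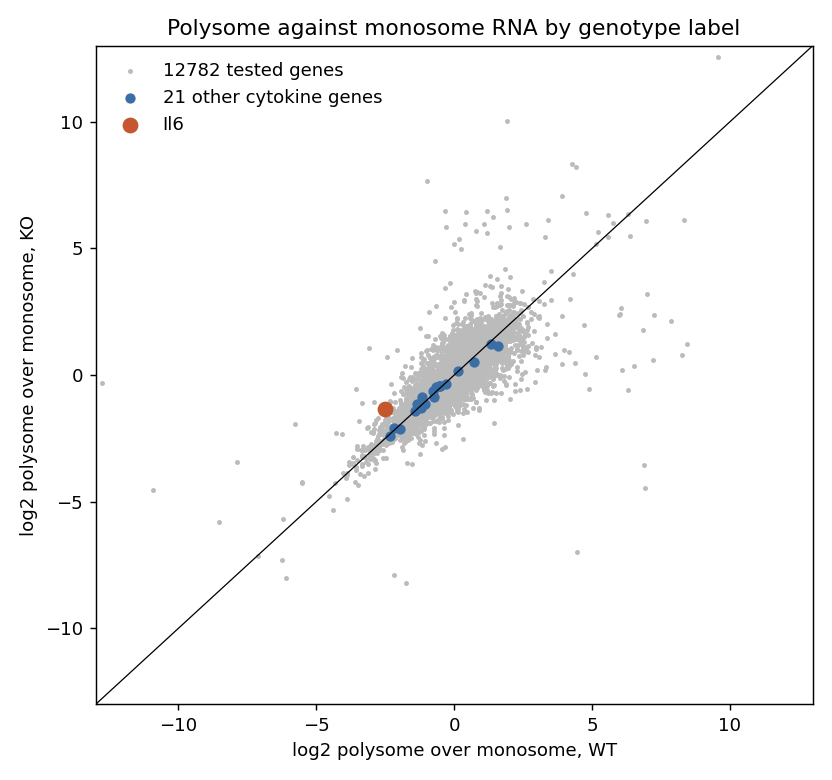
Polysome over monosome log2 values in WT (horizontal axis) and KO-labelled libraries (vertical axis) for 12782 tested genes in grey, 21 other cytokines in blue and Il6 in orange, with the line of equality. Il6 lies at -2.50 and -1.35, above the line.

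Genes of the IL-6 family and its signal gave no call between genotypes in edgeR. It called 0.0156% of all genes in total and in polysome RNA and 0.25% in monosome RNA, so a short list was likely to hold none. Of 9 cytokines that use gp130, 6 were tested and 0 passed in any fraction, with 0, 2 and 2 at an unadjusted p under 0.05 in total, polysome and monosome RNA. Over all genes the shares at that level were 5.84%, 6.99% and 11.7%. DESeq2 and voom called Il6 alone of these, in polysome RNA. Il27 and Ebi3, the subunits of interleukin-27, were the most abundant at 494 and 99.0 FPKM in WT polysome RNA, and their polysome differences were -0.01 ± 0.08 and -0.13 ± 0.09. Osm, oncostatin M, stood at 0.24 ± 0.11, Clcf1, a neurotrophic cytokine, at 0.15 ± 0.40, and Lif, leukaemia inhibitory factor, at -0.04 ± 0.14. Of 7 receptors 6 were tested and 0 passed in edgeR, DESeq2 or voom, with a polysome median of -0.21 and 1 unadjusted p under 0.05, in monosome RNA (11.7% of all genes). Il6ra, the receptor chain that binds IL-6, and Il6st, which encodes gp130, were low, at 0.939 and 2.41 FPKM in WT total RNA, with polysome differences of -0.43 ± 0.26 and 0.0013 ± 0.49. Of 8 signal transducers 0 passed with any of the 3 tools, and 0 had an unadjusted p under 0.05 in edgeR: the kinases Jak2 and Tyk2 stood at -0.05 ± 0.11 and 0.06 ± 0.09 and Stat3 at 0.07 ± 0.18. The same held for 5 inhibitors of the signal, with Socs3, which STAT3 induces and which blocks gp130, at -0.07 ± 0.10. Of 18 STAT3 target genes 12 were above 0 and 6 below in polysome RNA (median 0.05), and 0 passed, with 3 at an unadjusted p under 0.05 (6.99% of all genes). DESeq2 called Mcl1 in monosome RNA, 1 of the 118 genes it called there. The acute-phase gene Saa3 stood at 0.20 ± 0.13 and the survival gene Mcl1 at 0.14 ± 0.05.

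Regulators of Il6 itself also gave no call. Over all genes edgeR called 0.0156% in total and in polysome RNA and 0.25% in monosome RNA, so a short list was likely to hold none. Of 13 transcription factors known to act at the Il6 gene, 5 were above 0 and 8 below in polysome RNA (median -0.05) and 0 passed with edgeR, DESeq2 or voom, with 2 at an unadjusted p under 0.05 (6.99% of all genes). Cebpb, the most abundant by FPKM, stood at -0.05 ± 0.14, the NF-kappaB subunit Rela at 0.09 ± 0.08 and Irf1, an interferon regulatory factor, at -0.23 ± 0.08. The member farthest from 0, named after its values were seen, was Sp1, a zinc finger factor, at -3.78 ± 1.51 in polysome RNA (adjusted p = 0.612) and -4.73 ± 1.97 in monosome RNA (adjusted p = 0.368). Its WT polysome libraries had 1.52, 1.33 and 49.4 CPM and its KO-labelled ones 0.775, 1.92 and 1.15, so 1 WT library carried the polysome value. In monosome RNA every WT library (7.05, 20.2 and 18.2 CPM) lay above the KO-labelled ones (0.528, 0.391 and 0.768). KO-labelled monosome libraries lay wholly below WT for 6.49% of all genes. In total RNA Sp1 ran from 1.86 to 48.5 CPM in WT and from 1.87 to 52.8 under the KO label. In total RNA 9 of the 13 were above 0, with a median of 0.09. An unadjusted p under 0.05 in edgeR was reached by 1 of the 13 in total RNA (5.84% of all genes) and by 3 in monosome RNA (11.7%), all lower. Of 15 tested genes that control Il6 mRNA stability or translation, 9 were above 0 and 6 below in polysome RNA (median 0.02), with 0 passing with any of these tools and 0 at an unadjusted p under 0.05. At that unadjusted level in edgeR 1 was higher in total RNA, and 1 was higher and 1 lower in monosome RNA. The list had 17 names, of which 2 are newer symbols of listed genes. Zfp36, the gene of tristetraprolin, stood at -0.12 ± 0.08, Zc3h12a, the gene of Regnase-1, at 0.02 ± 0.09, and Elavl1, the gene of the stabilizing protein HuR, at 0.09 ± 0.07.

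The 8 genes whose levels followed Il6 most closely over the 18 libraries, by Pearson's r of log2 CPM among 8857 genes with a mean of at least 5 CPM, were Gstm1 (0.959), Tyms (0.955), Fosl1 (0.951), Ccl3 (0.951), Ublcp1 (0.95), Slfn1 (0.95), Aim2 (0.95) and Lilr4b (0.949). All 8, like Il6, were highest in monosome RNA in TMM-scaled CPM, a scaling that raises the monosome libraries relative to the others. Gstm1, a glutathione S-transferase whose reads may be shared with related genes, had 97.3 CPM in the WT polysome group and 171 in the KO-labelled one, a log2 difference of 0.81 ± 0.23 (adjusted p = 0.361), and at 859 and 707 in monosome RNA. Tyms, the thymidylate synthase next to Il6, stood at 3.98 and 4.83 in polysome RNA (0.28 ± 0.17, adjusted p = 0.850). After the mean of each fraction was taken off, the closest were Mettl6 (0.846), a tRNA methyltransferase gene, Zcchc7 (0.769), Smad2 (0.76), a signal carrier of TGF-beta, Prkcb (0.751), Rrn3 (0.734), Sec61a1 (0.721), Mfge8 (0.715) and Mtmr4 (0.711). None of these 8, picked for following Il6 in these same libraries, passed in polysome RNA, where edgeR called 0.0156% of all genes. Smad2 came closest to Il6 in size, at 0.92 ± 0.22 (adjusted p = 0.217), but its Spearman's rho with Il6 was only 0.385. Ranked by Spearman's rho instead, 1 of the first 8 and 4 of the second 8 were the same.

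Markers of other cell types were read beside the Il6 result, because in bulk RNA fewer cells of a type and less RNA per cell cannot be told apart. All 8 macrophage markers were present, led by Lyz2. Their summed level in polysome RNA was 6830 CPM (6720 to 6940) in WT and 7470 (7210 to 7870) in KO-labelled libraries. There 0 of 8 passed in edgeR (0.0156% of all genes) and 2 had an unadjusted p under 0.05 (6.99% of all genes). DESeq2 called 1, the integrin gene Itgam, among 55 genes of 12782. In edgeR 4 markers were above 0 and 4 below, from -0.20 to 1.36. Itgam was higher under the KO label, with a larger difference than Il6, which came 7th of 2765 genes averaging 50 CPM or more. Stromal cell genes had mostly positive differences: 9 of 10 were above 0 in total and in polysome RNA and 8 of 10 in monosome RNA, with medians of 0.37, 0.36 and 0.40. In edgeR 0 of 10 passed, beside 0.0156% of all genes in total and in polysome RNA and 0.25% in monosome RNA. An unadjusted p under 0.05 was reached by 4 of 10 in total RNA (5.84% of all genes), 5 in polysome RNA (6.99%) and 5 in monosome RNA (11.7%), all upward. DESeq2 called 1 in polysome RNA, the collagen gene Col3a1 (0.89 ± 0.22 in edgeR), and 3 in monosome RNA, among the 55 and 118 genes it called. Their summed level was 163 CPM (145 to 189) in WT and 213 (199 to 227) in KO-labelled polysome RNA. In total RNA it was 306 (273 to 350) and 380 (358 to 400), and in monosome RNA 297 (279 to 332) and 360 (341 to 374). In the KO-labelled polysome libraries the stromal sums were 199, 212 and 227 for replicates 1, 2 and 3, where Il6 had 86.6, 129 and 150 CPM. No stromal marker was at 0. The stromal sum was also higher under the KO label in monosome RNA, where Il6 lay lower. Their part in the result was not tested. Sums of the dendritic (up to 4.99 CPM), neutrophil (13.2), mast (5.34), B cell (20.3) and T cell (22) lists were low in every group mean, with Siglech, Ly6g and Retnlg at 0 in every library. The endothelial sum was 48.1 in WT and 39.6 in KO-labelled polysome RNA, with Tek at 0.

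**Figure D5:**
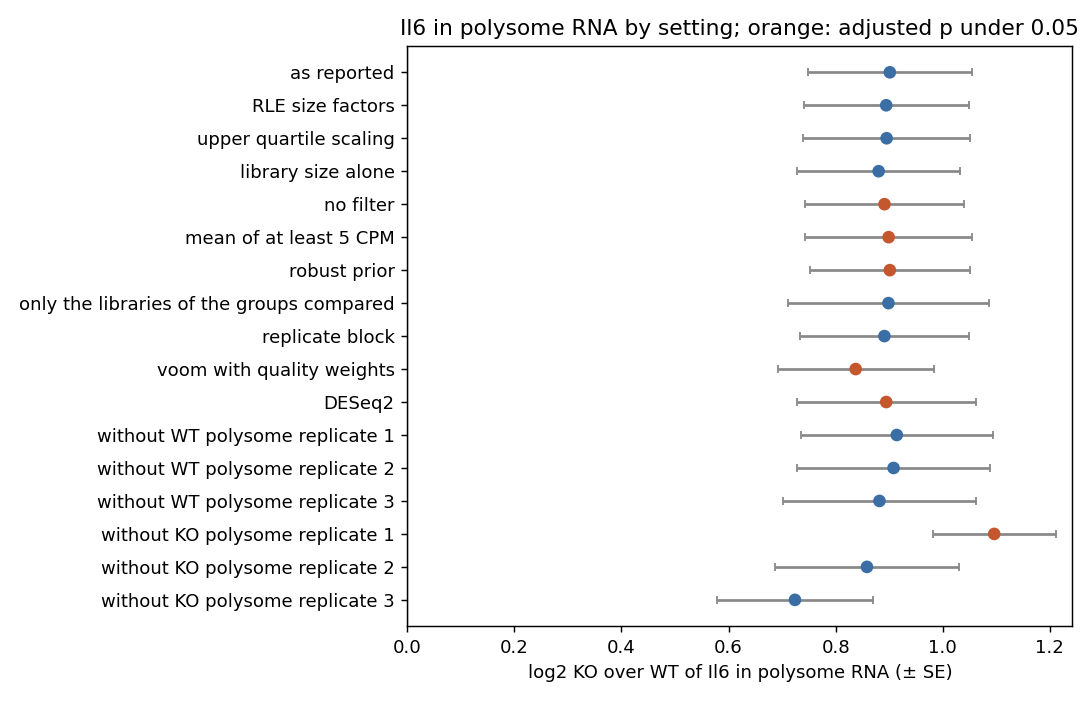
Log2 difference of Il6 in KO-labelled against WT polysome RNA (axis in log2 units) under each setting and with each polysome library left out, with standard errors, in orange where the adjusted p was under 0.05. Values lie between 0.72 and 1.10, with the lowest without KO polysome replicate 3 and the highest without KO polysome replicate 1.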

How the data were processed

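The authors deposited 1 table of raw counts per gene with FPKM beside them, per the file headers. The tools in the submitters' processing notes are StringTie 1.3.0, HISAT2 2.0.4 and fastp 0.23.2; their roles, genome build and strandedness are not given in the sources used here. The test was edgeR 4.0.16 (R 4.3.3) on counts: filterByExpr with the 6 groups, TMM, 1 mean per group over 18 libraries and the two-sided quasi-likelihood F test, with Benjamini-Hochberg adjustment over 12782 genes and a threshold of 0.05. FPKM were used only to rank genes by level. CPM are TMM-scaled, and log2 CPM carry a pseudocount of 2. Sequence came from GENCODE M21 on GRCm38. Alternatives were other scalings and filters, a robust prior, only the groups compared, a replicate block, voom (limma 3.58.1), DESeq2 1.42.0 and leaving out each library. Simulated data were tested, with 200 genes changed per comparison and the spread set by the trend over genes. Of 59 genes changed 2-fold in polysome RNA 78% were called, of 69 changed 1.5-fold 27.5%, beside 7 false calls. The real polysome test called 2 genes, and the spread of Il6 itself was not simulated. These shares therefore do not give the power of the test for Il6. Library totals were 9190034 to 16711558 counts. Genes named are Il6, Mkrn2, up to 6 list members of highest FPKM, the closest correlates, the polysome neighbours and genes called there. Gm42806, as the nearest gene, and Rp2, Csf2, Csf3, Inhba, Il10, Il12b, Il23a, Cxcl1, Cxcl2, Il12a, Ptgs2, Sp1, Tnfsf9, Ifnb1, Itgam, Col3a1, Siglech, Ly6g, Retnlg and Tek were named outside that rule, after their values were seen. Members and lists were chosen with earlier results of these data known.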

Additional observations from a re-analysis of the deposited data

How the results depend on the processing

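No Il6 direction reversed under any alternative. In polysome RNA the KO against WT difference passed with no filter (0.89, adjusted p = 0.0389), a mean of at least 5 CPM (0.90, 0.0441), a robust prior (0.90, 0.0339), voom (0.84, 0.0317) and DESeq2 (0.89, 0.000102), and not under the other 5 of 10 settings (highest adjusted p = 0.403, with only the compared libraries). Leaving out each library gave 0.72 to 1.10. The polysome-to-monosome difference passed with DESeq2 (1.14) and ranged from 0.97 to 1.34 with a library left out. Polysome against total under the KO label ranged from 0.0060 to 0.38, and polysome against monosome under library size alone was -0.33 (adjusted p = 0.0565). Counts of genes called were 2 in total RNA (1 with no filter, the compared libraries alone or the block, 67 with voom, 32 with DESeq2; 1 to 6 with a library left out), 2 in polysome RNA (5 with RLE or no filter, 9 with 5 CPM, the robust prior or the block, 8, 26 and 55 with the compared libraries, voom and DESeq2; 1 to 6) and 32 in monosome RNA (10, 15, 60 and 118 with the compared libraries, voom, the block and DESeq2; 30 to 71). For the polysome-to-total ratio it was 0 (1 with the compared libraries or voom, 3 with DESeq2; 0 to 4), for polysome-to-monosome 7 (27 with DESeq2; 6 to 19), and for monosome-to-total 7 (11 and 18 with the compared libraries and DESeq2; 4 to 22). With the replicate number as a block in edgeR the polysome difference was 0.89 (adjusted p = 0.0584) and the polysome-to-monosome one 1.14 (0.444). The polysome-to-total one was then 0.74 ± 0.24. After group means were taken off, same-numbered libraries correlated at -0.0521 to 0.153 and different-numbered ones at -0.154 to 0.0956. Same-numbered total and polysome libraries of a genotype correlated at 0.0366 to 0.153. Each such pair lay above the different-numbered polysome pairs of its total library. The main fit did not pair libraries, and whether a number marks a shared source was not settled. The causes were not tested. Intervals cover counting error or library spread only, and 3 libraries a group limit every test.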
